A study of Rattus norvegicus with 6 samples.

Results

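A set of 10 genes that mark macrophages of the testis was followed in cultures of rat Leydig cells, which make testosterone and in the testis have macrophages as close neighbours. The genes were Cd68, Cd163, Mrc1, Csf1r, Cx3cr1, Aif1, Adgre1, Cd53, Cd14 and Ptprc, chosen by name, out of 15168 genes with a probe on the array. Probes were matched to them through the RefSeq accession that each probe carries. All 10 had at least 1 probe, 13 probes in all, and 12 of these, covering all 10 genes, could be tested. Most of them encode proteins of the cell surface. The question was whether they changed together, as they would if the share of macrophages in the culture alone had changed.

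The exosome group was 3 arrays of primary Sprague-Dawley Leydig cells given exosomes at 5 µg/ml for 24 h. Exosomes are small membrane vesicles, and these had been released by primary rat Sertoli cells. The untreated group was 3 arrays of the same kind of cells with no exosomes added, and both groups shared the serum-supplemented medium. The labels do not say whether replicates came from separate animals or cultures, nor what the untreated cells received in place of exosomes, and any p-value here therefore reflects no more than how these 6 samples vary. Macrophages are not named in the labels. In RNA of a mixed culture, fewer macrophages and less RNA of a marker per macrophage cannot be told apart.

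Macrophages of the testis interstitium sit against Leydig cells and are known to influence their steroid output. They are kept alive by the cytokines Csf1 and Il34, which act on the receptor encoded by Csf1r. In mouse testis, interstitial macrophages are described as high in Csf1r and Mrc1 and peritubular ones as high in MHC class II. The transcription factor PU.1, encoded by Spi1, drives many of the genes that define the myeloid lineage.

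Most of the start regions of these genes held a short sequence that the choice of genes did not use. Among the 9 markers with a promoter window in RefSeq for GRCr8 (250 bases before to 50 after the start; Aif1 had none), 7 held the PU.1 core GAGGAA on either strand, against 27.6% of all 33469 windows. These 7 were Cd53, Adgre1, Cd68, Ptprc, Mrc1, Cd14 and Csf1r, and the windows of Cx3cr1 and Cd163 held no match. TATAAA was found in 0 of 9 windows, against 14.2% of all windows, and the AP-1 site TGANTCA was found in 1 of 9, that of Cd68, against 7.33%. The motifs were chosen after the values below had been seen, none of them contains another, and a match describes the sequence and not a bound site. The windows of the markers that changed most clearly in opposite directions are printed here in 5′ to 3′ order of the gene, with GAGGAA or its complement in capitals. Cd53 lies on the minus strand at chr2:197087847-197088146 and its match starts 44 bases before the gene, while Cx3cr1 lies on the minus strand at chr8:128677017-128677316.
Cd53: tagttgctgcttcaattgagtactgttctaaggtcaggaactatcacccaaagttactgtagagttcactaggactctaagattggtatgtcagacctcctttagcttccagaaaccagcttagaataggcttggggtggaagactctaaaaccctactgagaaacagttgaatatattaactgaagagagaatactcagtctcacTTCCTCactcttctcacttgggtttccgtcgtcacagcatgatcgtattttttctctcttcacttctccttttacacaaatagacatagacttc
Cx3cr1: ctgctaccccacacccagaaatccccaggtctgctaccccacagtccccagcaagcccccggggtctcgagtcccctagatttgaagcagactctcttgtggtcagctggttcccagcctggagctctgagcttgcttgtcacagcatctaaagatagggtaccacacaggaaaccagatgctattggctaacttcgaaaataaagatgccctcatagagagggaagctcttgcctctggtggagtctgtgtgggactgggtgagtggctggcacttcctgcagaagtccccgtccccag

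Values are given as the processed intensity of the deposited array files, the fluorescence of a probe after background correction. Changes are in log2 units after each array was divided by its 75th percentile of intensity, exosome minus untreated, with the standard error. A gene is represented by its brightest tested probe. The percentile itself was 860 to 1061 on the exosome arrays and 753 to 872 on the untreated arrays, so a change can differ in size from the ratio of the intensities. Of the gene spots, 67.2% to 72.2% were well above background on the exosome arrays and 72.6% to 75.6% on the untreated arrays. No gene spot was saturated. The arrays carried 3 scan times, each shared only by arrays of a single group, with all 3 untreated arrays at 1 of them, so scan time and treatment cannot be told apart.

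The markers did not change in 1 direction. Against adjusted p below 0.05 (limma, Benjamini-Hochberg over all tested probes), 1 marker rose, Cd53, and 2 fell, Cx3cr1 and Adgre1, while 7 missed the threshold. Over all 10979 tested genes, 43.8% passed the same test, 14.6% higher and 29.2% lower, so 3 of 10 is not above the background. The median change of the 10 markers was −0.21, against −0.19 over all tested genes, whose quartiles were −0.64 and 0.28. The markers differed among themselves by 3.00 log2 units between the highest and the lowest change, and by 2.61 with Cd68 left out. The counts shifted with the scaling and with single arrays. With quantile normalization 3 markers rose (Cd53, Aif1 and Ptprc) and 1 fell (Cx3cr1), where 20.2% of all genes rose and 16.1% fell, and the table of the authors gave the same counts against 20.2% and 16.2%. Median centring gave 2 and 1 against 25.1% and 16.9%, and the normexp background correction gave 2 and 3 against 17.9% and 35.3%. Without untreated replicate 2, 0 markers rose and 0 fell, where 1.22% of all genes rose and 7.47% fell. Without untreated replicate 3 they were 0 and 1 (1.92% and 9.08% of all genes), without exosome replicate 1 also 0 and 1 (3.43% and 12.8%), without exosome replicate 2 they were 2 and 2 (15.7% and 30.0%), and without exosome replicate 3 they were 1 and 1 (6.99% and 21.7%).

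**Figure D1:**
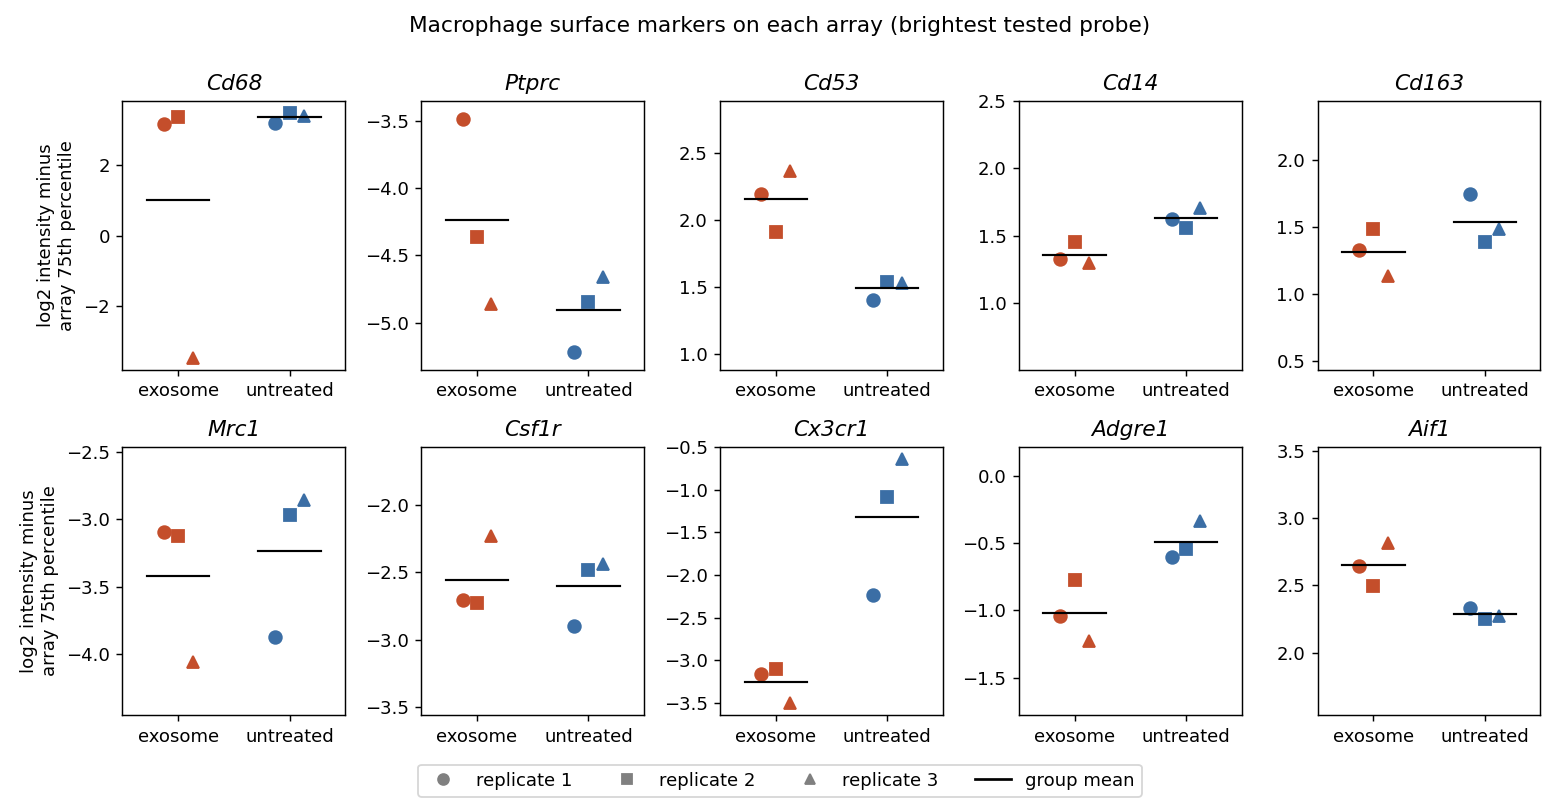
Log2 intensity minus the array's 75th percentile (vertical axes, each panel with its own range) for the 10 markers in the 3 exosome and 3 untreated arrays. Points are arrays and lines are group means; exosome arrays lie wholly above untreated arrays for Cd53 and Aif1 and wholly below for Cx3cr1, Adgre1 and Cd14, and 1 exosome array of Cd68 stands far below the rest.

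Cx3cr1, the receptor through which macrophages and monocytes sense the chemokine fractalkine, was the marker with the largest change past the test. Its intensity was 112.5, 123.7 and 75.8 in exosome replicates 1 to 3, against 185.5, 368.9 and 484.8 in untreated replicates 1 to 3. Every exosome array lay below every untreated array, and the untreated arrays themselves differed more than the exosome arrays did. On the scaled log2 values the SD was 0.22 in the exosome group and 0.83 in the untreated group (n = 3 each). The change was −1.94 ± 0.40, a 3.83-fold lower level, with a limma adjusted p of 0.0143 and a 95% interval of −2.89 to −0.99. In the table of log2 values that the authors deposited, the same difference was −1.73. The call rests in part on untreated replicate 2: without it the change was −1.82 with a limma adjusted p of 0.055, and without other single arrays it ranged between −2.40 and −1.60.

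The genes with the profile nearest to that of Cx3cr1 over the 6 arrays, by root mean square distance of log2 values centred on their own mean, were Cym at 0.070, Extl3 at 0.071 and Tmem47 at 0.075. Cym encodes a digestive protease, chymosin, and Extl3 an enzyme of heparan sulfate synthesis; neither is a macrophage marker. These 3 genes shared the wide untreated spread of Cx3cr1, with SDs between 0.85 and 0.86 in untreated arrays. No untreated array received exosomes, so the treatment does not differ among them. What sets untreated replicates 2 and 3 apart from untreated replicate 1 for these genes was not tested.

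Adgre1, which encodes the adhesion receptor F4/80, had intensities of 488.2, 619.0 and 366.8 in exosome arrays and 574.6, 534.9 and 598.0 in untreated arrays. The raw intensities of the groups overlap, and the scaled values do not. The change was −0.52 ± 0.16 with a limma adjusted p of 0.0374. This call was lost under quantile normalization (−0.43), median centring (−0.29), the authors' table (−0.42) and no filter on dim probes. It was also lost with the scan time as a random block and with the replicate number as a block. Leaving out untreated replicate 2 or 3 or exosome replicate 1 or 3 lost it too. The nearest profiles were those of Cct7 at 0.019, Gfus and Olig2, both at 0.024, and none of these is a macrophage gene.

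Cd53, a tetraspanin carried by leukocytes of many kinds, was the marker that rose. Its intensity was 4588.9, 3980.4 and 4425.1 in exosome arrays, against 2313.2, 2268.4 and 2178.8 in untreated arrays. All exosome arrays were higher, by more than the range of intensities within either group. The change was 0.66 ± 0.15, a 1.58-fold higher level, with a limma adjusted p of 0.0175 and a 95% interval of 0.30 to 1.02. It stayed positive and past the test under every normalization tried, with values of 0.60 to 0.89. The test was missed without untreated replicate 2, untreated replicate 3 or exosome replicate 1, with limma adjusted p-values of 0.062, 0.058 and 0.061 and changes of 0.68, 0.68 and 0.64. The nearest profiles were those of Pex3 at 0.035, Hmgb1 at 0.039 and Nptn at 0.041, genes of peroxisomes, chromatin and cell adhesion.

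Ptprc encodes CD45, the phosphatase found on nucleated cells of the blood lineages, and it is the marker least tied to any single leukocyte. It is measured by a probe spotted 10 times on each array, whose mean intensity was 89.6, 51.4 and 29.5 in exosome arrays and 23.5, 27.0 and 29.7 in untreated arrays. Exosome replicate 1 was high, exosome replicate 2 was intermediate and exosome replicate 3 lay among the untreated arrays. Leaving out spots with an outlier mark, as these means do, the repeated spots ran from 86.2 to 95.6 on exosome replicate 1, from 25.7 to 32.8 on exosome replicate 3 and from 20.3 to 32.8 on untreated replicate 1. A marked spot of untreated replicate 1 stood apart at 82.0. The change was 0.67 ± 0.35 with a limma adjusted p of 0.163, and it was 0.29 without exosome replicate 1. Under quantile normalization it was 1.14 with a limma adjusted p of 0.039, and the authors' values gave 1.13. A second Ptprc probe gave 3.0 to 5.0 and was not well above background on any array.

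Aif1, which encodes the cytoplasmic calcium-binding protein Iba1, had a pair of probes that disagreed. The brighter gave 6294.2, 5976.4 and 6065.3 in exosome arrays, against 4400.4, 3699.9 and 3638.0 in untreated arrays, with no overlap. Its change of 0.37 ± 0.13 missed the test (limma adjusted p 0.0546), and it passed under quantile normalization (0.32), median centring (0.60) and the authors' table (0.32). The dimmer probe gave 3459.0, 3634.5 and 3128.1 in exosome arrays and 2834.1, 3095.8 and 3274.6 in untreated arrays, and its groups overlap. That change was −0.13 ± 0.14 with a limma adjusted p of 0.485.

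Csf1r, the receptor for Csf1 and Il34, also had probes that disagreed. The brighter gave 154.3, 160.0 and 183.2 in exosome arrays and 117.1, 139.5 and 139.3 in untreated arrays. Its scaled values overlap, with a change of 0.05 ± 0.20 (limma adjusted p 0.852). Under quantile normalization it was 0.32 and missed the test (limma adjusted p 0.202). On the authors' values it was also 0.32, and there the groups did not overlap. The dimmer gave 64.4, 77.4 and 39.4 in exosome arrays and 97.9, 97.2 and 110.6 in untreated arrays, all lower with exosomes. Its change of −1.09 ± 0.21 passed the test (limma adjusted p 0.0124), as did 42.4% of all 20433 tested probes. The same gene was therefore 1.04-fold higher, short of the test, or 2.12-fold lower according to the probe, and the sequences of the probes were not used here. Such disagreement is common on this array: of 1493 genes with 2 tested probes, 737 (49.4%) had changes of opposite sign. Of the 265 genes whose 2 probes both passed the test, 122 had changes of opposite sign. Cx3cr1, Cd53 and Adgre1 each have a single probe, so the direction of their changes could not be checked on another probe.

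**Figure D2:**
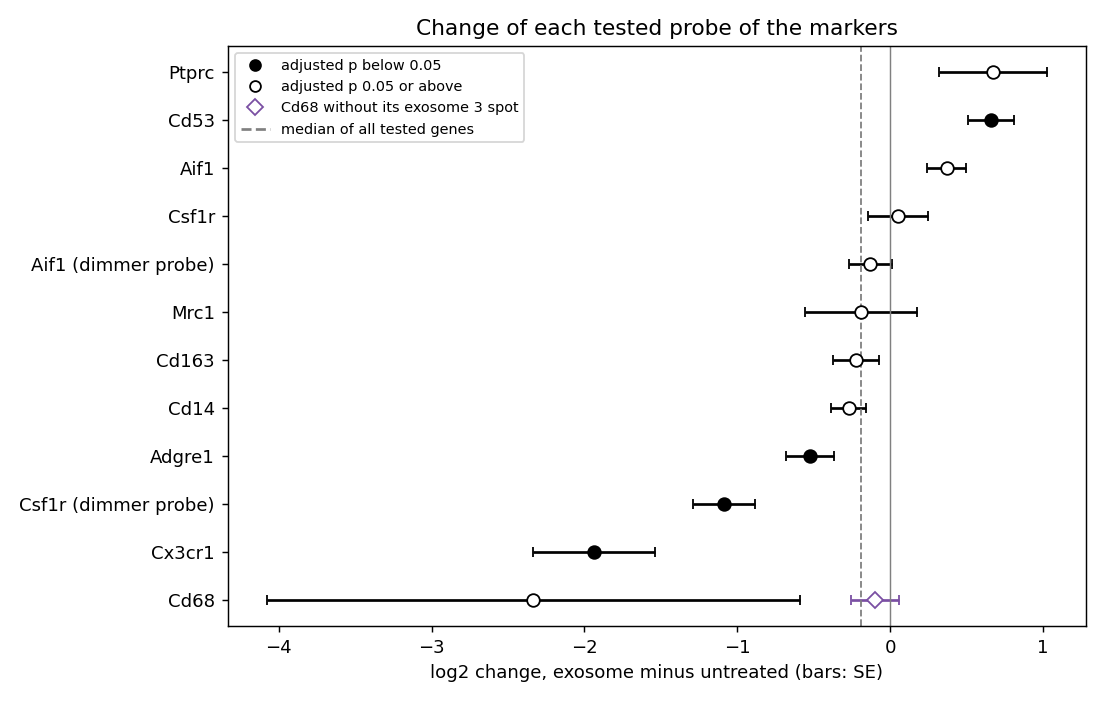
Log2 change, exosome minus untreated (horizontal axis), of the 12 tested probes of the markers; points are fitted changes, bars standard errors, filled points passed adjusted p below 0.05. Changes run from 0.67 for Ptprc to −2.34 for Cd68, whose open diamond shows −0.10 without 1 spot, and the dashed line is the median of all tested genes at −0.19.

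The scavenger and pattern receptors did not pass the test. Cd14, the co-receptor that hands lipopolysaccharide to Tlr4, gave 2521.1, 2895.1 and 2112.0 in exosome arrays and 2692.8, 2294.7 and 2453.9 in untreated arrays. Its scaled values were lower in every exosome array, with a change of −0.27 ± 0.11 and a limma adjusted p of 0.0911. With the normexp background correction Cd14 passed, at −0.28 (limma adjusted p 0.041). Cd163, the receptor that clears haemoglobin bound to haptoglobin, gave 2515.5, 2969.0 and 1883.2 in exosome arrays and 2916.3, 2035.3 and 2109.2 in untreated arrays. The groups overlap, with a change of −0.22 ± 0.15 (limma adjusted p 0.268, 95% interval −0.59 to 0.14). Mrc1, the mannose receptor, gave 117.7, 122.0 and 51.5 in exosome arrays and 59.5, 99.7 and 104.0 in untreated arrays, with 1 low array in each group. Its change was −0.19 ± 0.37 (limma adjusted p 0.694), with an interval of −1.07 to 0.69 that holds changes of 2-fold in the downward direction, and it was 0.13 under quantile normalization.

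Counted by overlap, 5 of 10 markers had scaled values that separated the groups, against 62.0% of all tested genes. Cd53 and Aif1 separated upward, where the share of all genes was 24.1%. Cx3cr1, Adgre1 and Cd14 separated downward, where it was 37.9%. On the authors' values these 5 separated in the same directions, and Ptprc and the brighter Csf1r probe also separated upward. No share of all genes is given for that version, so it is not read against a background.

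Cd68, a lysosomal membrane glycoprotein of macrophages, gave the lowest fitted change of the list, and a single spot set it. Its intensity was 8910.9, 10784.3 and 78.5 in exosome replicates 1 to 3, against 7930.1, 8598.8 and 7943.7 in untreated replicates 1 to 3. All arrays but exosome replicate 3 were close to each other. The change was −2.34 ± 1.74 with a limma adjusted p of 0.308, and −0.10 with a limma adjusted p of 0.624 once that spot was left out. Cd68 has 1 spot per array, in the first column of the grid. On exosome replicate 3 the spots directly before and after it were 13.5-fold and 50.5-fold below the median of the other 5 arrays and carried the scanner software's outlier mark. The Cd68 spot was 110-fold below and carried no mark, so a filter on marks keeps it. The spots between 2 and 6 rows away in that column were within 2.13-fold of the other arrays' median. Of the gene spots over 100 on the other 5 arrays, those more than 8-fold lower on 1 array numbered 12, 0 and 5 on exosome replicates 1 to 3 and 0, 1 and 0 on untreated replicates 1 to 3.

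**Figure D3:**
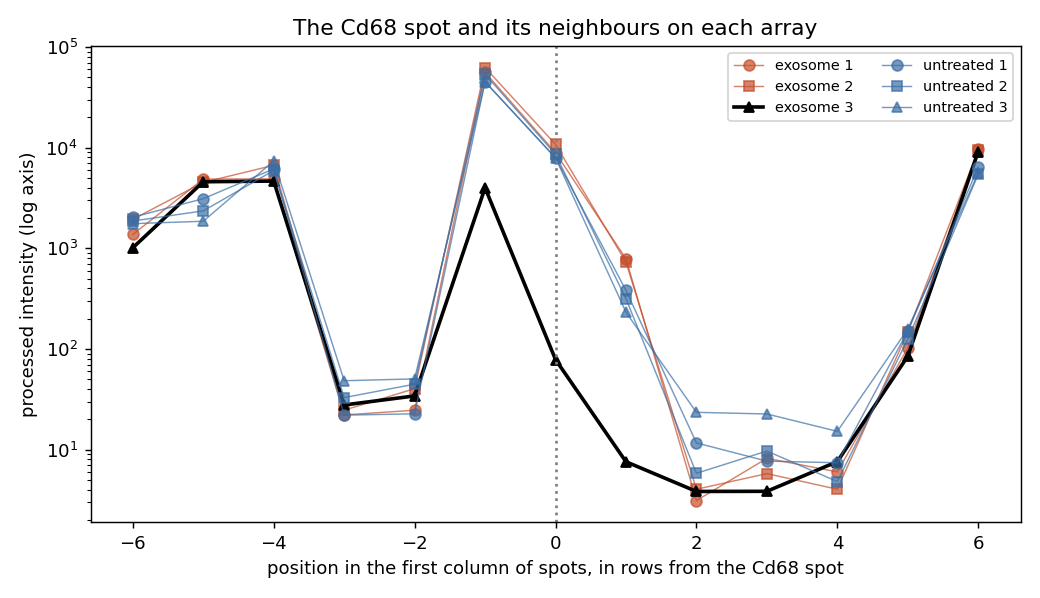
Processed intensity (log axis) of the Cd68 spot at position 0 and of the 6 spots on each side of it in the first column of spots, for each of the 6 arrays. Exosome replicate 3 (black) falls below the other arrays at positions −1, 0 and 1 and lies near them at the other positions.

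A change in the share of macrophages alone would, if no other cell carried them, shift all markers by the same log2 amount. To look at those differences, each array was scaled on the markers themselves. Scaled on the median level of the 10 markers, 0 markers passed the limma test, as did 0.0911% of all tested genes, and every marker had a standard error of 0.73. That median was −1.73 on exosome replicate 3, against 0.14 and 0.34 on the other exosome arrays and 0.40 to 0.58 on untreated arrays, because the Cd68 spot fell past the middle of the list. With Cd68 left out of the median, 3 markers were higher and 1 was lower, where 27.0% of all tested genes were higher and 3.8% lower. A version chosen after these values were seen first centred each marker on its own mean and then took the median of the 10 centred values on each array as the common change. That common change was 0.04, 0.04 and −0.29 on exosome arrays and −0.04, 0.08 and 0.18 on untreated arrays.

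Relative to the common change, Cd53 was higher by 0.80 ± 0.22 (limma adjusted p 0.038) and Cx3cr1 was lower, at −1.80 ± 0.33 (limma adjusted p 0.020). These were the 2 of 10 markers past the test, where 24.0% of all tested genes passed, 8.23% higher and 15.7% lower. Adgre1 was no longer past it, at −0.38 with a limma adjusted p of 0.113. Ptprc stood at 0.81 (adjusted p 0.068) and Aif1 at 0.51 (adjusted p 0.109), and neither passed. With quantile normalization, and on the authors' values, the counts were again 1 higher and 1 lower, but the higher marker was Ptprc, and Cd53 had limma adjusted p-values of 0.083 and 0.081. No share of all genes is given for these versions, so their counts are not read against a background.

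**Figure D4:**
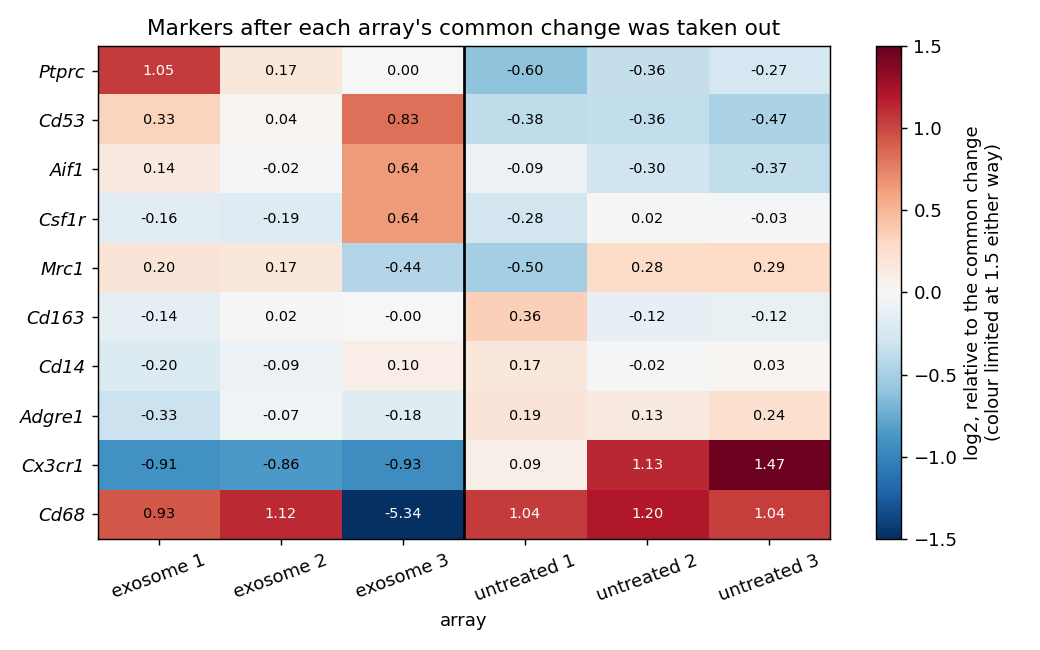
Log2 values of the 10 markers (rows) on the 6 arrays (columns, exosome arrays left of the line and untreated arrays right of it), each centred on its own mean and with the array's common change taken out. Cx3cr1 is at −0.86 to −0.93 on exosome arrays and 0.09 to 1.47 on untreated arrays, while Cd53 is at 0.04 to 0.83 on exosome arrays and −0.36 to −0.47 on untreated arrays.

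Other macrophage genes also held changes in both directions. Of 42 further surface receptors, 38 were on the array and 32 tested; 5 rose and 6 fell, with a median change of −0.10. Those counts are no larger a share than among all genes for the falls (29.2%) and near it for the rises (14.6%). Clec4a3, a C-type lectin, rose by 0.55 ± 0.12 (limma adjusted p 0.0176). That call was lost with the replicate number as a block, and without untreated replicate 2 or 3 or exosome replicate 1. Axl, a receptor for the uptake of dying cells, changed by −0.83 ± 0.16 and the inhibitory receptor Cd300a by −0.62 ± 0.15 (limma adjusted p 0.0127 and 0.0194). The Axl call was lost without untreated replicate 2 or 3. The Cd300a call was lost under quantile normalization (−0.35, limma adjusted p 0.073), median centring and the authors' values. It was also lost without untreated replicate 2 or 3 or exosome replicate 1. Csf2rb, the signalling chain of the receptor for the cytokine GM-CSF, was well above background on 0 exosome arrays and 3 untreated arrays. Csf2rb is counted among the 6 falls but entered the test only through the untreated arrays. With exosome values raised to at least the dimmest probe above background on their array, it was 2.21-fold lower. That size depends on this floor. Lyve1, Cd86, Cd80, Mertk and Cd52, all known from macrophages, were not well above background on any array. Under quantile normalization 6 receptors rose and 3 fell, where 20.2% of all genes rose and 16.1% fell.

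Of the 29 tested intracellular and secreted macrophage products, 1 rose and 7 fell, with a median of −0.08, and quantile normalization gave 5 and 6. Beside this and the next lists, 14.6% of all genes rose and 29.2% fell. Under quantile normalization these shares were 20.2% and 16.1%. The falls included the complement subunits C1qa (−0.63 ± 0.13) and C1qc (−0.82 ± 0.15) and the lysosomal protease Ctss (−0.72 ± 0.15), with limma adjusted p-values of 0.0134, 0.0121 and 0.0146. C1qb, the partner of C1qa and C1qc in the same complex, was at 0.00 and missed the test (limma adjusted p 0.98). Lcp1, an actin-bundling protein of leukocytes, rose by 0.88 ± 0.16 (limma adjusted p 0.0116). The C1qa, Ctss, C1qc and Lcp1 calls were all lost without untreated replicate 2. Those of C1qa and Ctss were also lost without untreated replicate 3 or exosome replicate 1. Of 6 tested MHC class II genes, 4 fell, with a median of −0.63. Cd74, the invariant chain, changed by −1.10 ± 0.23, RT1-Bb by −0.67 ± 0.12, RT1-DMb by −0.67 ± 0.14 and RT1-DMa by −0.60 ± 0.13, and none of these passed under quantile normalization. Of 7 tested myeloid transcription factors, 2 rose and 0 fell, Klf4 by 0.76 ± 0.21 and Runx1 by 0.86 ± 0.28 (limma adjusted p 0.030 and 0.0481). With quantile normalization this list gave 1 and 0, as Runx1 missed at 0.83 (limma adjusted p 0.065). Runx1 also missed on the authors' values, with no filter, and with scan time or replicate number as a block. It missed without any 1 of 5 arrays, all but untreated replicate 1. Klf4 missed with no filter, and without untreated replicate 2 or 3 or exosome replicate 1 or 3. Spi1, which encodes PU.1, was at 0.01 ± 0.84 and missed the test. It was well above background on only 1 exosome and 2 untreated arrays, so this value does not show whether Spi1 changed. Cebpa and Ikzf1 were not well above background on any array.

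**Figure D5:**
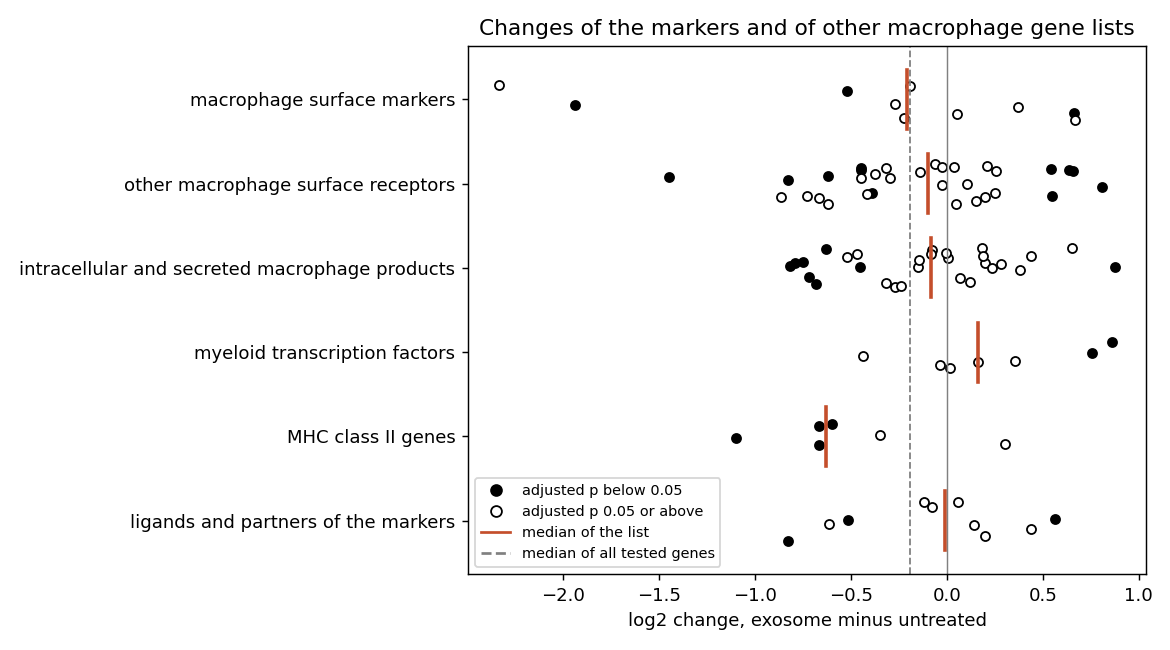
Log2 change, exosome minus untreated (horizontal axis), of each tested gene of 6 macrophage-related lists; filled points passed adjusted p below 0.05, red bars are list medians and the dashed line is the median of all tested genes. List medians lie between −0.63 for the MHC class II genes and 0.16 for the transcription factors, and every list but 2 holds genes past the test on both sides of 0.

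The ligands and partners of the markers were tested as a list of 10 genes, of which 1 rose and 2 fell, with a median of −0.01. Over all genes 14.6% rose and 29.2% fell. Csf1, the ligand of Csf1r, changed by −0.51 ± 0.13 (limma adjusted p 0.0241), while Il34, its other ligand, was at 0.06 and missed the test. The Csf1 call was lost with median centring, no filter and the replicate number as a block. It was also lost without untreated replicate 2 or 3 or exosome replicate 1 or 3. Cx3cl1, the fractalkine bound by Cx3cr1, was at 0.20 and missed the test, and Adam17, a protease that sheds fractalkine and Csf1r from the cell surface, changed by −0.83 ± 0.24 (limma adjusted p 0.0328). The Adam17 call was lost under quantile normalization (−0.64, limma adjusted p 0.066), median centring, the authors' values, no filter and the replicate number as a block. Leaving out untreated replicate 2 or 3 or exosome replicate 1 or 3 also lost it. Among the partners of Cd14, Tlr2 rose by 0.56 ± 0.14 (limma adjusted p 0.0206), and Tlr4 (0.14), Ly96 (−0.08) and Lbp (−0.62) missed the test. The Tlr2 call was lost with the replicate number as a block, and without untreated replicate 2 or 3 or exosome replicate 1. Hp, the haptoglobin whose complex with haemoglobin Cd163 takes up, was at −0.12 and also missed.

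Markers of other cells were measured beside the macrophage list, as intensities summed over the tested genes of a list and divided by the array's 75th percentile. For the 10 macrophage markers that sum was 25.7, 26.1 and 17.8 on exosome replicates 1 to 3 and 24.3 to 26.1 on untreated arrays, and the low value is that of the array with the low Cd68 spot. Without Cd68 it was 15.9 to 17.7 on exosome arrays and 14.7 to 15.6 on untreated arrays. Bright genes weigh most in such a sum. On exosome arrays the brightest left were Cd53 and the brighter Aif1 probe, both higher on every exosome array after scaling. The dimmer Aif1 probe overlapped between the groups. Cd14 and Cd163, the next brightest, changed by −0.27 and −0.22, so the sum gives no direction for the markers as a set. For T cells the sum was 0.66 to 0.75 on exosome arrays and 0.78 to 0.86 on untreated arrays. Of 6 tested, 0 rose and 2 fell, and Cd3e and Cd5 were not above background on any array. B cell markers (0 rising and 1 falling of 2 tested) summed to 0.18 to 0.21 on exosome arrays and 0.33 to 0.39 on untreated arrays. For neutrophils (0 and 1 of 1) the sums were 0.17 to 0.22 on exosome arrays and 0.28 to 0.32 on untreated arrays, and for dendritic cells (0 and 1 of 1, Xcr1 and Clec9a not above background) 0.03 to 0.08 on exosome arrays and 0.13 to 0.14 on untreated arrays. Mast cell markers (1 and 2 of 4) summed to 0.21 to 0.28 on exosome arrays and 0.17 to 0.19 on untreated arrays, and NK cell markers (0 and 0 of 2) to 0.08 to 0.09 in both groups. Of the mast cell falls, Cpa3 was above background on 0 exosome arrays and entered the test only through the untreated arrays. With quantile normalization the counts were 0 and 0 for T cells and neutrophils, 1 and 1 for B cells, 1 and 0 for NK and mast cells and 0 and 1 for dendritic cells. Over all genes 14.6% rose and 29.2% fell with 75th percentile scaling, and 20.2% and 16.1% with quantile normalization. Each of these falls rests on 1 or 2 genes. The part of these cells in the result for Cd53 and Ptprc, which other leukocytes also carry, was not tested.

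The Leydig cell markers were present unevenly. Their sum of 74.4 to 88.1 on exosome arrays and 75.6 to 84.8 on untreated arrays came mostly from Star and Hsd3b1, genes of steroid synthesis, while Cyp17a1 gave 18.6 to 31.1 on exosome arrays and 21.2 to 29.8 on untreated arrays. Lhcgr and Nr5a1 were not above background on any array and Hsd17b3 on 1 of 6. Stromal markers summed to 76.6 to 86.7 on exosome arrays and 72.7 to 81.0 on untreated arrays. Of the 5 tested Leydig cell markers, 0 rose and 1 fell, Cyp11a1, the first enzyme of steroid synthesis, which changed by −0.86 ± 0.12 (limma adjusted p 0.00983). Of the other cells of the testis, 2 of 5 tested stromal markers rose and 0 fell, 2 of 5 endothelial markers rose and 3 fell, and 0 of 5 peritubular myoid markers rose and 2 fell. Of Sertoli cell markers 0 of 3 rose and 1 fell, and of germ cell markers 0 of 2 rose and 1 fell. Beside all these counts, 14.6% of all tested genes rose and 29.2% fell. With quantile normalization the counts were 0 and 1 for Leydig cell, 1 and 0 for stromal and 2 and 2 for endothelial markers. They were 0 and 2 for peritubular myoid, 0 and 1 for Sertoli cell and 0 and 0 for germ cell markers. In that version 20.2% of all genes rose and 16.1% fell.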

How the data were processed

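RNA of 3 exosome-treated and 3 untreated Leydig cell samples was measured on 1-colour Agilent arrays. Per the file headers, intensities were read with Feature Extraction 11.0.1.1, the same version as in the submitters' processing notes, and the processed intensity is corrected for background within an array. The authors deposited a table of log2 values, whose 6 columns share a median of 5.68; it was treated as quantile normalized and used as an alternative. Of 30367 gene probes, 18005 took a symbol from RefSeq GRCr8 through their accession, which gave 15168 genes.

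Spots with an outlier mark were left out, spots of a probe averaged, and log2 intensity minus the array's 75th percentile tested with limma 3.58.1 (R 4.3.3; lmFit, eBayes, Benjamini-Hochberg) for 20433 probes well above background on at least 3 of 6 arrays. The fit was tested on simulated data. A gene stands for its brightest tested probe. Named besides the markers are up to 4 genes per list of smallest p past the test, and the 3 nearest profiles; other partners, Spi1 and genes not above background were named after their values were seen. The members and lists were chosen with earlier results of these data known. Alternatives were other normalizations, filters, blocks, probes and single arrays left out.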

Additional observations from a re-analysis of the deposited data

How the results depend on the processing

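The 1 higher and 2 lower markers became 3 and 1 both under quantile normalization and on the authors' values, 2 and 1 with median centring, 2 and 3 with normexp (offset 50, on median spot signals, chosen after the data were seen), 1 and 1 with no filter, and 2 and 2 when all 6 arrays had to be above background. The scan time as a random block gave 1 and 1, which is not read against a background, as no share of all genes is given for it. The replicate block gave 1 and 1 markers and 768 higher and 2409 lower genes, with Adgre1 missing the test (limma adjusted p 0.083). Same-numbered samples did not deviate together from their group means (correlations −0.087, −0.028 and −0.024). Taken around means of 3 arrays, these correlations cannot settle whether the numbers pair samples. With single arrays left out, higher markers numbered 0 to 2 and lower markers 0 to 2; both were 0 without untreated replicate 2. Over all genes, 1598 were higher and 3208 lower, against 2213 and 1766 when quantile normalized, 2216 and 1782 on the authors' values, 2756 and 1856 with median centring and 849 and 2230 with no filter. They were 1965 and 3879 with normexp, and 1803 and 2919 when all 6 arrays had to be above background. Single arrays left out gave 134 to 1725 higher and 820 to 3294 lower, the lowest without untreated replicate 2. The median change of all genes was −0.19, against 0.01 under quantile normalization and 0.04 with median centring, so a marker level with the median gene stands at a different value in each. Relative to the other markers, 0 and 0 became 0 and 2 on their mean, 3 and 1 without Cd68 in the median and 1 and 1 after centring each marker; that version gave 1 and 1 under quantile normalization and on the authors' values, 2 and 1 with normexp, and 0 to 2 higher and 0 to 1 lower with single arrays left out. Among these relative counts, those on the mean, under other normalizations and with single arrays left out have no share of all genes beside them. They are therefore not read against a background. Csf1r reversed to −1.09 with its other probe. Mrc1, which missed the test throughout, was −0.19, and 0.13 under quantile normalization.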
